A study of Mus musculus with 12 samples.

Results

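Autophagy and lysosome genes were examined in peaks of AGO2-bound RNA from mouse tibialis anterior muscle. The 10 genes were Ulk1, Map1lc3a, Map1lc3b, Gabarapl1, Sqstm1, Bnip3, Lamp1, Lamp2, Ctsd and Ctsl. They were chosen by name, and every listed peak that overlapped one of them on the same strand by at least 1 nt was taken, with no threshold. They held 622 of the 713343 peaks listed over input in 4 libraries and were 10 of the 17902 genes with a listed peak. Lamp2 is among the transcripts that the study names as targets of miR-486.

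Wild-type (WT) male mice and male mice without mir-486 (mir-486 KO), all 6 months old, were compared by chimeric eCLIP. In this assay RNA is cross-linked to AGO2, a protein that carries microRNAs to their targets, and is recovered by immunoprecipitation. There were 2 library sets, each with 1 immunoprecipitated library and 1 input per genotype. Libraries further enriched for miR-486 belong to the series too and are not analysed here. The labels give C57BL/6 as the WT strain and FVB N/J as the mir-486 KO strain, while the methods describe a CRISPR deletion within the mir-486 hairpin on a C57BL/6J background, so that strain and genotype cannot be told apart from the labels. The methods describe 3 muscles per genotype, run in duplicate, and neither source says how these muscles went into the 2 sets or whether they were pooled, so the spread between sets may be technical.

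In autophagy, a kinase complex that contains ULK1 starts the formation of a double membrane, and small proteins of the LC3 and GABARAP families are attached to it. Receptors such as SQSTM1 and BNIP3 carry cargo to the membrane, which then fuses with a lysosome. LAMP1 and LAMP2 line the lysosome and cathepsins digest what it receives. In muscle the pathway clears damaged mitochondria and protein aggregates and rises in fasting and disuse. A microRNA recognises a transcript mainly through its seed, and many known sites lie in 3′ UTRs.

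The recovered depth was 3010000 and 3370000 reads for the WT and mir-486 KO immunoprecipitated libraries of set 1, and 9310000 and 10100000 for those of set 2. The inputs held between 1380000 and 6460000 reads. At the Mir486 gene on the plus strand, the WT libraries had 2 and 4 listed peaks in sets 1 and 2, all enriched, and both mir-486 KO libraries had 0. All 6 skeletal muscle markers had peaks in each library, between 890 and 1900 peaks in sum. At WT peaks the median log2 folds of WT over mir-486 KO of these muscle markers ran from 0.27 to 0.96 in set 1. In set 2 they ran from −0.33 to 0.23. At mir-486 KO peaks their medians of mir-486 KO over WT ran from −0.96 to −0.17 in set 1 and from −0.23 to 0.37 in set 2. The 6 macrophage markers, genes of a cell type rich in lysosomes, had 32 peaks in WT and 22 in mir-486 KO in set 1, and 109 and 76 in set 2. Adgre1 had no listed peak in WT set 1 and mir-486 KO set 2, and Cd68 had none in mir-486 KO set 1. At WT peaks their median log2 folds of WT over mir-486 KO ran from −0.18 to 1.74 in set 1, over 5 markers, and from 0.40 to 1.91 in set 2. At mir-486 KO peaks their medians of mir-486 KO over WT ran from −1.16 to 1.43 in set 1, where only Lyz2 was below 0. In set 2 these ran from −1.18 to −0.12, so the direction in set 1 depended on the peak list. The 4 red blood cell markers, all haemoglobin genes, had more WT reads in both sets, with medians from 0.91 to 2.30 in set 1 and from 1.43 to 1.76 in set 2. The part of such cells in the results below was not tested. In whole muscle, fewer cells of a type and less RNA per cell cannot be told apart.

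The sites that the seed results turn on are shown here. A seed word is the 7-nt complement of bases 2 to 8 of a microRNA, searched on the transcript strand only. The words were ACATTCC for miR-1 and miR-206, GGACCAA for miR-133, CTACCTC for let-7, TGGTGCT for miR-29, TGTTTAC for miR-30 and GTACAGG for miR-486-5p. Of all 98929 listed 3′ UTR peaks, extended by 25 nt on each side, 3.43%, 2.24%, 2.23%, 3.51%, 3.44% and 0.736% held these words, in that order. Mature microRNAs of the miR-133, let-7 and miR-29 families are printed from RefSeq (GRCm38.p6), with the seed in capitals. The sites are windows of 29 nt on GRCm38 with the seed word in capitals.
miR-133b-3p: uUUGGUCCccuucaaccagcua
let-7a-5p: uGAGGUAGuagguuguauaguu
miR-29a-3p: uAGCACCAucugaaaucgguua
Gabarapl1 3′ UTR, miR-133 word, chr6:129541592-129541620, plus strand: ccacacctaagGGACCAAaagatacccac
Gabarapl1 3′ UTR, miR-486-5p word, chr6:129541910-129541938, plus strand: acctttctcatGTACAGGggcagcgtgtc
Lamp1 CDS, let-7 word, chr8:13174499-13174527, plus strand: gtcctcattgcCTACCTCattggcaggaa
Lamp2 CDS, miR-29 word, chrX:38421785-38421813, minus strand: ccaattatagtTGGTGCTggtctttcagg
Lamp2 CDS, miR-29 word, chrX:38440130-38440158, minus strand: acagtatttccTGGTGCTgtagctaaagg
Bnip3 5′ UTR, let-7 word, chr7:138909441-138909469, minus strand: ggctgcccctgCTACCTCtcggtgaccgc
Map1lc3b 3′ UTR, miR-486-5p word with no listed peak, chr8:121591924-121591952, plus strand: aggtggcttcaGTACAGGctattggcctc
Ctsl 3′ UTR, miR-486-5p word with no listed peak, chr13:64362345-64362373, minus strand: tggtcagagggGTACAGGtcatgatggtg

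The exons of the 10 genes held 17 of these words, of which 7 lay within 25 nt of a listed peak and 6 did so in all 4 libraries. There were 8 words in 3′ UTRs, and the 2 with such a peak were both in Gabarapl1. The words of Lamp1 and Lamp2 lay in coding sequence and that of Bnip3 in the 5′ UTR. No exon of Lamp2 held the miR-486-5p word, and the annotated 3′ UTRs of Map1lc3b and Ctsl held 1 each, without a peak. A word match is a description of the sequence and not evidence of binding by that microRNA.

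The first comparison asked which of these transcripts AGO2 held above input. A peak is called enriched when its log2 fold over input and its −log10 p both reach 3 or more, and both measures are those deposited with the peaks. Few peaks of the 10 genes were enriched, and they fell in 5 genes: Sqstm1, Ctsd and Ctsl in WT set 1, Gabarapl1 in both mir-486 KO libraries, and Lamp2 in both libraries of set 2. The counts were 7 of 122 listed peaks in WT set 1, 1 of 136 in mir-486 KO set 1, 1 of 176 in WT set 2 and 4 of 188 in mir-486 KO set 2. Of all listed peaks, 3.57%, 0.848%, 1.42% and 1.23% were enriched in these libraries, in the same order, against 5.74%, 0.735%, 0.568% and 2.13% for the 10 genes. Among peaks with at least 20 reads in the 2 libraries compared, 9.86%, 1.41%, 0.658% and 2.41% were enriched for the 10 genes. For all peaks these shares were 17.2%, 5.69%, 4.19% and 3.71%, so the 10 genes were below all peaks in each library. The direction between genotypes turned between sets, as the WT library had more enriched peaks in set 1 and fewer in set 2. An exact permutation of 2 against 2 libraries cannot give a two-sided p under 0.333, and for that reason genotypes were compared without a test here and below.

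At a lower fold the genes stood further from the rest of the lists. A log2 fold over input of at least 1, with the same p threshold, was reached by 22 peaks in WT set 1, 6 in mir-486 KO set 1, 21 in WT set 2 and 20 in mir-486 KO set 2. These were 18%, 4.41%, 11.9% and 10.6% of the peaks of the 10 genes, against 7.14%, 1.99%, 5.37% and 4.72% of all listed peaks. Read depth moved with this difference. The median peak of the 10 genes held 18.5, 13.5, 50 and 45 reads in the same order, while the median of all listed peaks was 6, 5, 7 and 8 reads. Among peaks with at least 20 reads in the 2 libraries compared, the shares were 31.0%, 8.45%, 13.8% and 12% for the 10 genes and 34.4%, 13.4%, 16.1% and 14.2% for all peaks. Among these deeper peaks the 10 genes were below all listed peaks in each library, although a floor on reads does not make the depths equal. Where only a ratio was recovered, the reads are the least possible. Some deep peaks that were not above input may therefore be missing from these shares, and the same limit applies to this floor above and below.

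**Figure D1:**
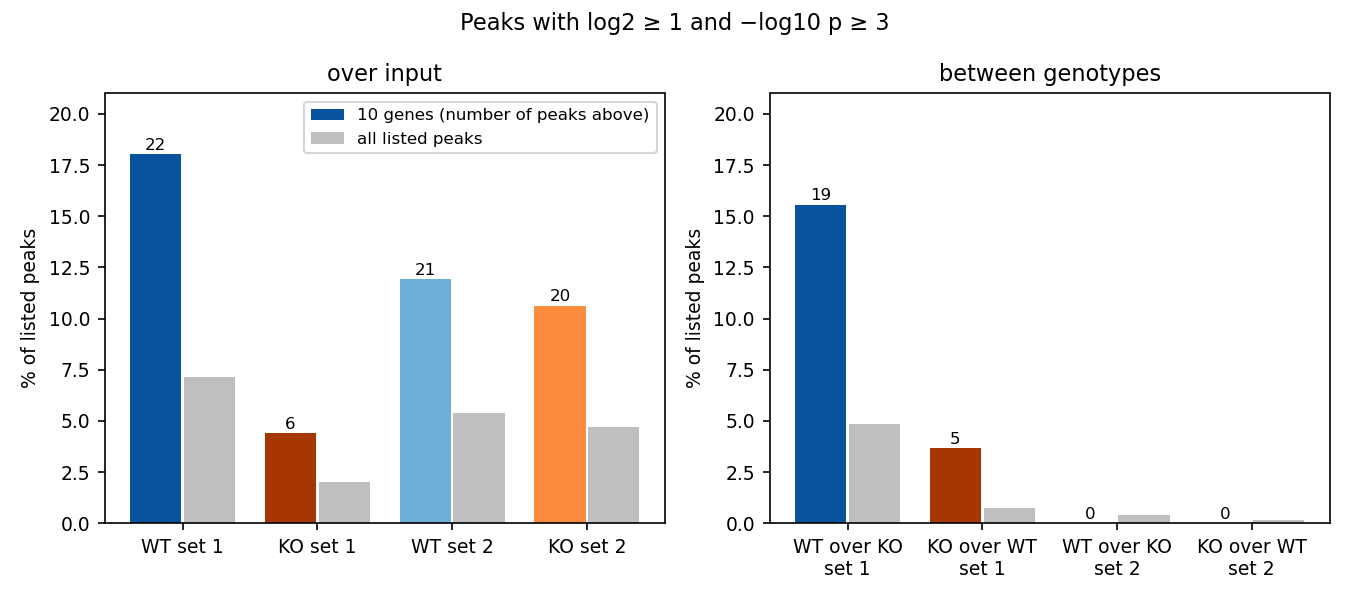
Share of listed peaks, in percent, that reached a log2 fold of 1 and a −log10 p of 3, over input (left) and between genotypes (right), for the 10 genes (coloured bars, number of peaks above) and for all listed peaks (grey bars). The coloured bars over input, from 4.41% to 18%, stand above the grey bars, from 1.99% to 7.14%, in each library, an order that turned among peaks with at least 20 recovered reads.

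**Figure D2:**
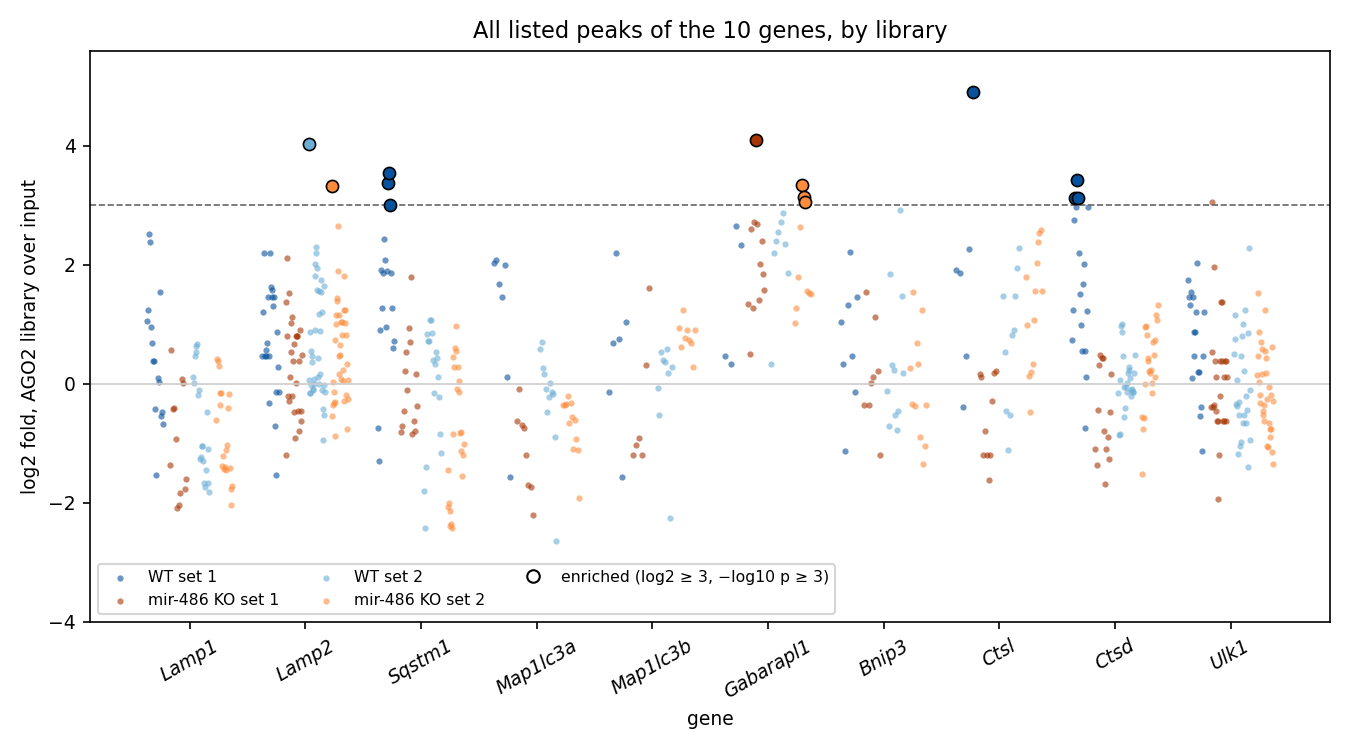
Log2 fold of the immunoprecipitated library over input (vertical axis) for all listed peaks of each gene (horizontal axis), coloured by library, with enriched peaks outlined in black and a dashed line at a log2 fold of 3. The 13 enriched peaks belong to Lamp2, Sqstm1, Gabarapl1, Ctsl and Ctsd, and the peaks of Gabarapl1 lie above 0 in all 4 libraries.

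Genes differed in how often they passed the lower fold. Gabarapl1 had such peaks in all 4 libraries, with 1, 6, 7 and 8 peaks in WT set 1, mir-486 KO set 1, WT set 2 and mir-486 KO set 2. Bnip3, Ctsl and Ctsd had them in 3 libraries each. Lamp2 had 7 in WT set 2 and 3 in mir-486 KO set 2, and Sqstm1 had 7 in WT set 1 and 1 in WT set 2. Map1lc3a with 3 peaks and Lamp1 with 2 had them in WT set 1 alone. Map1lc3b and Ulk1 had none in any library, and none of these counts was compared by a test.

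Most peaks of the 10 genes lay in coding sequence. Coding sequence held 188 of 298 listed peaks in WT (63.1%, 95% Wilson interval 57.5 to 68.4) and 186 of 324 in mir-486 KO (57.4%, 52.0 to 62.7). Of all listed peaks, coding sequence held 51.8% and 40.2% in WT sets 1 and 2, and 35.5% and 39.7% in mir-486 KO. Introns held only 8.72% of the listed peaks of the 10 genes in WT and 9.88% in mir-486 KO. Of all listed peaks, introns held 21.4% and 41.7% in WT sets 1 and 2, and 39.5% and 43.1% in mir-486 KO. The higher coding share was not separated from this lower intron share. The 3′ UTR of the 10 genes held 61 in WT (20.5%, 16.3 to 25.4) and 76 in mir-486 KO (23.5%, 19.2 to 28.4), beside 19.3% and 12.2% of all listed peaks in WT and 18.3% and 11.4% in mir-486 KO. Of the enriched peaks, 0 of 8 in WT and 3 of 5 in mir-486 KO were in a 3′ UTR, with Wilson intervals of 0 to 32.4% and 23.1 to 88.2%. All 3 were adjoining Gabarapl1 peaks of set 2. Of all enriched peaks, between 30.4% and 35.4% per library were in 3′ UTRs. These intervals cover counting error only.

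The second comparison set the 2 immunoprecipitated libraries of each set against each other, and so compared AGO2-bound reads between genotypes. These folds have no input term, so a change in binding and a change in transcript amount cannot be told apart in them. Here and below, more or fewer reads between genotypes means after scaling to each library's depth. In set 1, Map1lc3a had more reads in WT and Gabarapl1 more in mir-486 KO, and both cathepsins had more reads in WT. In set 2 the cathepsins and Gabarapl1 were close to equal, and Map1lc3a kept a smaller excess in WT. The haemoglobin genes were higher in WT in both sets as well, and the skeletal muscle markers were in set 1. The part of either in these values was not tested. Past the same thresholds there was 1 peak of WT over mir-486 KO in set 1, in Map1lc3a, and 0 of mir-486 KO over WT. In set 2 there were 0 in either direction. Of all listed peaks, 0.469% passed for WT over mir-486 KO and 0.179% for mir-486 KO over WT in set 1, and 0.0192% and 0.0144% in set 2.

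At a log2 fold of at least 1, 19 peaks passed for WT over mir-486 KO in set 1: 9 of Ctsd, 7 of Map1lc3a, 2 of Sqstm1 and 1 of Ctsl. For mir-486 KO over WT, 5 peaks passed, all of Gabarapl1. In set 2 there were 0 in both directions. All listed peaks gave 4.85% and 0.755% in set 1, and 0.403% and 0.144% in set 2, for WT over mir-486 KO and mir-486 KO over WT. Among peaks with at least 20 reads in the compared libraries, the 10 genes reached 22.4% against 16.3% of all peaks for WT over mir-486 KO in set 1, and 6.10% against 3.12% for mir-486 KO over WT. The same shares in set 2 were 0% against 0.987% and 0% against 0.345%.

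The median log2 fold of WT over mir-486 KO at the WT peaks of the 10 genes was 0.68 in set 1 and 0.08 in set 2, a mean of 0.38 ± 0.43 (SD, n = 2 sets). Over all listed WT peaks it was 0.74 and 0.30. At the mir-486 KO peaks, with the sign turned so that a positive value means more reads in WT, the 10 genes gave 0.10 and 0.04 and all peaks gave −0.72 and −0.27. Listed peaks thus tended to have more reads in the library they were called in, so each gene is given at the peaks of both genotypes. Of the 10 genes, 3 lay above the median gene at WT peaks in set 1 and 1 in set 2, and 8 and 10 did at mir-486 KO peaks.

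**Figure D3:**
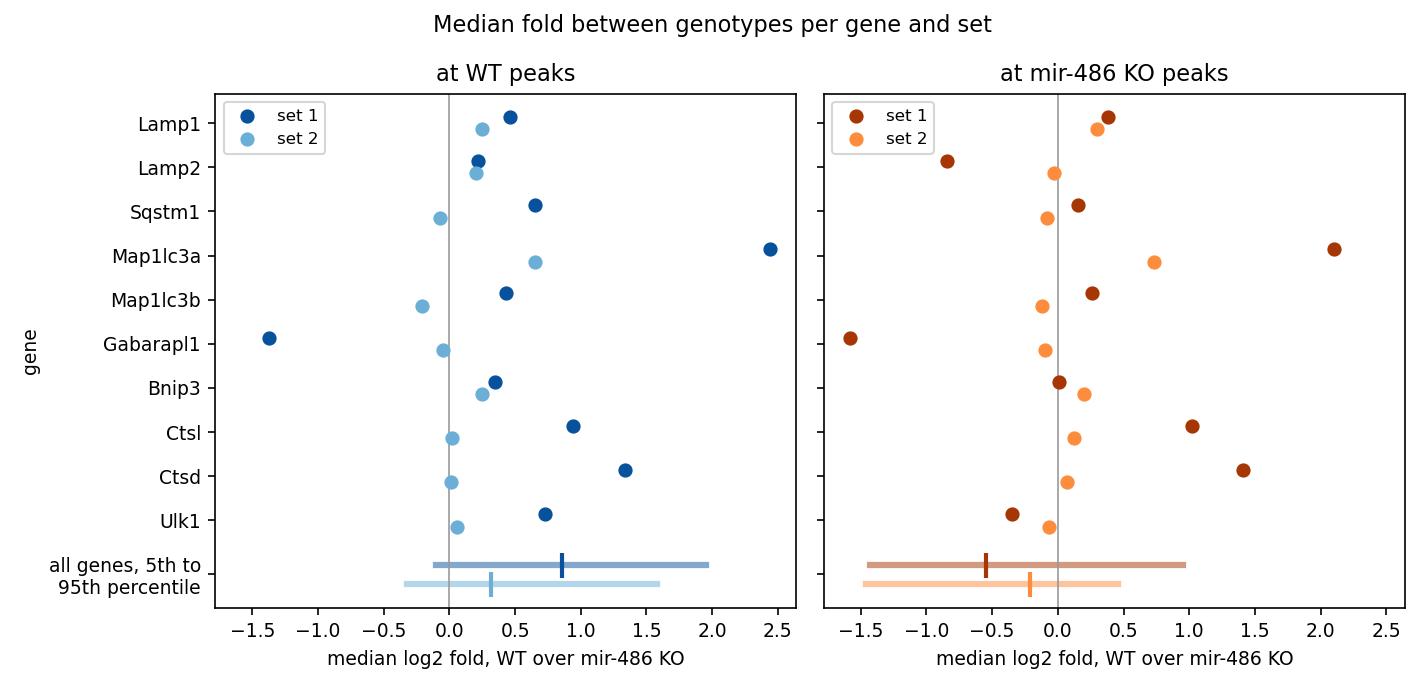
Median log2 fold of WT over mir-486 KO (horizontal axis) for the peaks of each gene (vertical axis), at WT peaks (left) and at mir-486 KO peaks (right), 1 point per set, with bars from the 5th to the 95th percentile of all genes with at least 3 listed peaks and ticks at their median. Map1lc3a lies at 2.44 and 0.65 on the left and 2.10 and 0.73 on the right, and Gabarapl1 at −1.37 and −0.05 and at −1.58 and −0.10.

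Ulk1 encodes the kinase that starts autophagy (chromosome 5, 110784488 to 110810097, minus strand). It had 100 listed peaks over the 4 libraries, 67 of them in coding sequence and 22 in the 3′ UTR, and most held few reads. Its WT peak with the most reads was in the 3′ UTR in both sets, with 22 WT and 24 mir-486 KO reads in set 1 and 102 and 107 in set 2. The log2 folds of WT over mir-486 KO there were 0.03 (95% counting interval −0.87 to 0.93) and 0.05 (−0.35 to 0.46). Both intervals hold 0, and the depth of set 1 leaves a wide range. The gene's medians were 0.73 and 0.06 at WT peaks and −0.35 and −0.07 at mir-486 KO peaks.

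Map1lc3a encodes an LC3 protein that is attached to the growing autophagosome membrane (chromosome 2, 155276297 to 155278073, plus strand). It had the highest median log2 fold of WT over mir-486 KO of the 10 genes in both sets. Its deepest WT peak in set 1, in coding sequence at chr2:155277097-155277204, held 175 WT and 20 mir-486 KO reads, a log2 fold of 3.29 (95% counting interval 2.62 to 4.04). The overlapping mir-486 KO peak had a log2 fold over input of −1.20. This was the peak past the thresholds in the direct comparison, and it did not lie wholly within 1 exon. It had 20 reads in the WT input and a log2 fold over input of 2.00.

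All 7 WT peaks of Map1lc3a in set 1 had more reads in WT, from a log2 fold of 1.55 to 3.29, and each counting interval lay above 0. In set 2 the log2 folds ran from −0.16 to 1.02, and 10 of 11 peaks with settled reads had an interval above 0. The deepest of these, in the 5′ UTR, held 137 WT and 94 mir-486 KO reads, a log2 fold of 0.67 (0.28 to 1.06). Adjoining peaks share reads and are not independent. The gene's median of 2.44 in set 1 lay above the 95th percentile of all genes with at least 3 listed peaks, 1.95, while 0.65 in set 2 was below 1.58. At mir-486 KO peaks the medians of 2.10 and 0.73 lay above the 95th percentiles of 0.95 and 0.46.

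The fold of Map1lc3a over input also differed between genotypes. At 3 matched pairs of WT and mir-486 KO peaks in set 1 the log2 fold over input was higher in WT by a median of 2.42, and at 8 pairs in set 2 by 0.40, with WT higher in each pair. All listed peaks gave 0.81 and 0.01. Even so, no peak of Map1lc3a was enriched in any library, and in set 2 its median log2 fold over input was −0.11 in WT and −0.59 in mir-486 KO. Its 3′ UTR had 1 listed peak per library, at log2 folds over input between −2.65 and −1.56, so it held fewer reads than the input, scaled to depth, in each.

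Map1lc3b encodes a second LC3 protein (chromosome 8, 121590361 to 121598760, plus strand) and is overlapped on the same strand by Gm20388, whose reads cannot be told apart from its own. Its deepest peak was in the 3′ UTR in each library. In set 1 that WT peak held 81 WT and 61 mir-486 KO reads, a log2 fold of 0.57 (0.07 to 1.07), and in set 2 it held 164 and 197, a log2 fold of −0.14 (−0.45 to 0.16). The sign of the gene's median turned in the same way, from 0.43 to −0.21 at WT peaks. Map1lc3a and Map1lc3b were thus both higher in WT in set 1 at these peaks, and only Map1lc3a was in set 2, with no test of that difference.

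Gabarapl1 encodes a member of the GABARAP family that is attached to the same membranes (chromosome 6, 129533160 to 129542346, plus strand). Gm44243 overlaps it on the same strand. It was the one gene of the 10 with more mir-486 KO than WT reads at each listed peak of set 1. Its median log2 fold over input was 1.40 and 2.38 in WT and 1.94 and 1.68 in mir-486 KO, in sets 1 and 2. All of its 34 listed peaks were above input, the lowest at a log2 fold of 0.33.

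The 2 seed words of Gabarapl1 shown above lay 216 to 222 nt and 534 to 540 nt after the last coding base. The peak over the miR-133 word was the deepest of the gene in each library. In WT it held 110 reads over 8 in input in set 1 and 572 over 54 in set 2, log2 folds of 2.66 and 2.88. In mir-486 KO it held 253 over 17 and 645 over 46, log2 folds of 2.69 and 3.05. The fold over input thus differed little between the 4 libraries, and the last of them was enriched.

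Between genotypes this region differed in set 1 and not detectably in set 2. The WT peak over the miR-133 word held 110 WT and 204 mir-486 KO reads in set 1, a log2 fold of WT over mir-486 KO of −0.73 (−1.08 to −0.39). In set 2 it held 572 and 645 reads, a log2 fold of −0.05 (−0.22 to 0.11). The log2 fold over input at the 2 matched pairs of set 1 differed by −0.04 and 0.92, WT minus mir-486 KO, so neither pair repeated the excess of mir-486 KO reads by more than 0.04.

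The peaks that covered the miR-486-5p word held fewer reads. The WT peak there held 22 WT reads over 2 in input in set 1 and 183 over 25 in set 2, log2 folds over input of 2.33 and 2.35. The mir-486 KO peak held 49 over 8 and 140 over 28, log2 folds of 1.41 and 1.56. The fold over input was thus higher in WT in both sets, although neither peak of set 1 passed a −log10 p of 3 and the peak outlines differed between libraries. Set against each other, the WT peak held 22 WT and 72 mir-486 KO reads in set 1, a log2 fold of −1.55 (−2.31 to −0.84), and 183 and 157 in set 2, 0.34 (0.03 to 0.66). The direct comparison at this word therefore turned between sets.

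The strongest Gabarapl1 peak of set 1 was the mir-486 KO peak that ran from coding sequence into the 3′ UTR, chr6:129541316-129541426. It held 79 mir-486 KO reads over 2 in input, a log2 fold of 4.10 (2.20 to 7.17), and 20 WT reads. The WT library of set 1 had no listed peak there. In set 2 the overlapping WT peak with 228 reads had a log2 fold over input of 2.55, so binding was measured there in WT too.

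**Figure D4:**
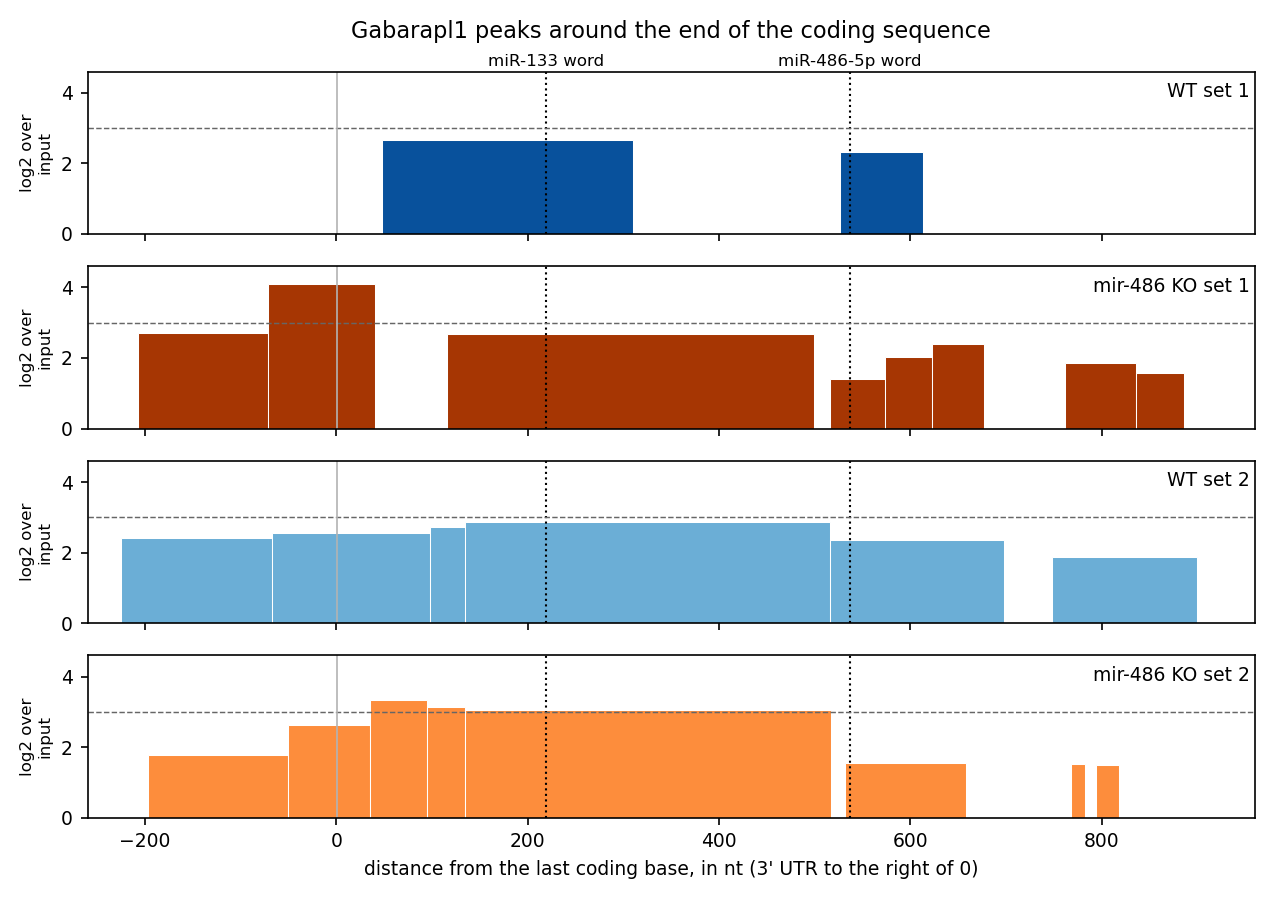
Listed Gabarapl1 peaks around the end of the coding sequence, 1 panel per library, with distance from the last coding base in nt on the horizontal axis, log2 fold over input as bar height, a dashed line at a log2 fold of 3 and dotted lines at the miR-133 and miR-486-5p words. Peaks cover both words in all 4 libraries, and WT set 1 has 2 peaks in this stretch, between 2.33 and 2.66.

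Sqstm1 encodes p62, a receptor that binds ubiquitin-tagged cargo and LC3 (chromosome 11, 50199366 to 50210827, minus strand). It had 3 enriched peaks in WT set 1, adjoining and in coding sequence, at chr11:50207411-50207635. They held 45, 51 and 105 reads over 2, 2 and 6 in input, log2 folds of 3.37 (1.43 to 6.46), 3.55 (1.62 to 6.63) and 3.00 (1.83 to 4.48). No Sqstm1 peak was enriched in the other libraries, where its median log2 fold over input was −0.23 in mir-486 KO set 1, 0.37 in WT set 2 and −0.85 in mir-486 KO set 2. Between genotypes the gene's median at WT peaks was 0.65 in set 1 and −0.07 in set 2.

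The number of reads did not follow the fold over input. The deepest Sqstm1 peak of WT set 1, in coding sequence at chr11:50200716-50200936, held 118 reads over 29 in input, a log2 fold of 0.90. The mir-486 KO set 2 peak at chr11:50210553-50210616 had a log2 fold over input of −1.13. Its recovered 2496 reads are not used, because a WT set 2 peak that contains this interval held 84 mir-486 KO reads. That WT peak, chr11:50210553-50210644, held 83 WT reads over 104 in input, a log2 fold of −0.85. The 3′ UTR of Sqstm1 was likewise below input in all 4 libraries, with medians from −2.14 to −0.76.

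Bnip3 encodes an outer mitochondrial membrane receptor that brings mitochondria to autophagosomes (chromosome 7, 138890836 to 138909519, minus strand). Its deepest peak was in the 3′ UTR in each library. It held 61 WT and 48 mir-486 KO reads in set 1 and 202 and 185 in set 2, log2 folds of WT over mir-486 KO of 0.51 (−0.06 to 1.08) and 0.25 (−0.05 to 0.54). Over input the WT peaks had log2 folds of 2.22 and 1.85 and the mir-486 KO peaks 1.55 and 1.55. The fold over input was higher in WT in both sets, and the direct intervals held 0 in both.

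Lamp1 encodes an abundant glycoprotein of the lysosome membrane (chromosome 8, 13159161 to 13175338, plus strand). Its deepest WT peak, which covers the let-7 word shown above, held 70 WT and 64 mir-486 KO reads in set 1 and 177 and 172 in set 2. The log2 folds of WT over mir-486 KO were 0.29 (−0.22 to 0.80) and 0.16 (−0.15 to 0.47). Over input the WT peak had a log2 fold of 1.54 in set 1 and −0.47 in set 2, so the peak was not above input in the deeper set. At matched peaks Lamp1 was higher over input in WT in 10 of 10 pairs in set 1, by a median of 1.42, and in 8 of 12 pairs in set 2, by 0.11.

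Lamp2 encodes the other main membrane protein of lysosomes, with an isoform that takes up proteins in chaperone-mediated autophagy (chromosome X, 38401357 to 38456454, minus strand). It had 123 listed peaks over the 4 libraries, the most of the 10 genes, of which 47 were in coding sequence, 25 in the 3′ UTR and 45 in introns. Its medians of WT over mir-486 KO were 0.22 and 0.20 at WT peaks and −0.84 and −0.03 at mir-486 KO peaks. The direction thus turned with the peak list used, and no Lamp2 peak reached a log2 fold of 1 with a −log10 p of 3 in either direct comparison.

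Binding of Lamp2 was seen in coding sequence rather than in the 3′ UTR at the lower fold. Of the 7 peaks of WT set 2 with a log2 fold over input of at least 1, 6 were in coding sequence and 1 was intronic, and of the 3 in mir-486 KO set 2 these were 2 and 1. No 3′ UTR peak of Lamp2 passed in any library, where between 5 and 8 were listed. The deepest coding peak, chrX:38431853-38432009 in WT set 2, held 92 WT and 113 mir-486 KO reads, a log2 fold of −0.17 (−0.59 to 0.23), and log2 folds over input of 2.30 in WT and 1.89 in the mir-486 KO peak there. In set 1 the deepest WT peak overlapped it and held 27 and 24 reads, a log2 fold of 0.33 (−0.52 to 1.19).

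The enriched Lamp2 peak was intronic and was the one site enriched in both genotypes of a set. It lay at chrX:38406029-38406234 in WT set 2, with 47 reads over 2 in input, a log2 fold of 4.03 (2.10 to 7.12). In mir-486 KO set 2 it lay at chrX:38406024-38406217, with 34 reads over 2, a log2 fold of 3.33 (1.36 to 6.43). In set 1 the overlapping peaks had 10 reads over 1 in WT and 6 over 1 in mir-486 KO, and neither was enriched. Between genotypes the WT peak of set 2 had a log2 fold of 0.59 (−0.08 to 1.27).

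The miR-29 words in the coding sequence of Lamp2 lay within 25 nt of peaks in all libraries, at modest folds. At the word of chrX:38421785-38421813, the strongest peak held 10 reads over 1 and 23 over 15 in WT sets 1 and 2, and 14 over 3 and 71 over 25 in mir-486 KO. The mir-486 KO peak of set 1 lay near this word and did not cover it. Over the other word the log2 folds over input were between −0.71 and 0.44. None of these peaks reached a −log10 p of 3 over input.

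Ctsd encodes cathepsin D, an aspartic protease (chromosome 7, 142375911 to 142388038, minus strand), and Gm49369 overlaps it on the same strand. All 18 of its WT peaks in set 1 had more reads in WT, and 14 of the 18 counting intervals lay above 0. The deepest, in coding sequence at chr7:142387738-142387870, held 155 WT and 68 mir-486 KO reads, a log2 fold of 1.35 (0.93 to 1.78). In set 2 the deepest WT peak held 214 and 197 reads, a log2 fold of 0.24 (−0.04 to 0.53), and 13 of 25 peaks had a log2 fold above 0.

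The enriched peaks of Ctsd were 3 coding peaks of WT set 1, with 76, 70 and 57 reads over 4, 3 and 3 in input. Their log2 folds over input were 3.12 (1.71 to 5.03), 3.42 (1.81 to 5.73) and 3.12 (1.5 to 5.44). At matched peaks WT was higher over input in 10 of 10 pairs in set 1, by a median of 2.46, and in 3 of 12 pairs in set 2, with a median difference of −0.32. The direction of Ctsd thus turned between sets on this measure.

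Ctsl encodes cathepsin L, a cysteine protease of the lysosome (chromosome 13, 64359337 to 64370890, minus strand), and Gm49230 overlaps it on the same strand. Its 5′ UTR peak at chr13:64370227-64370308 had the highest fold over input of all peaks of the 10 genes. In WT set 1 it held 65 reads over 1 in input, a log2 fold of 4.90 (2.37 to 10.22), and 14 mir-486 KO reads, a log2 fold of WT over mir-486 KO of 2.37 (1.53 to 3.32). The fewest reads written for any input is 1, so a 1 may stand for 0. In the other libraries the overlapping peaks had log2 folds over input of 0.18 in mir-486 KO set 1, 1.95 in WT set 2 and 2.59 in mir-486 KO set 2.

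In set 2 Ctsl did not differ detectably between genotypes. Its deepest WT peak, in the 3′ UTR, held 120 WT and 118 mir-486 KO reads, a log2 fold of 0.15 (−0.23 to 0.52). At matched peaks WT was higher over input in 6 of 6 pairs in set 1, by a median of 1.76, and in 2 of 8 in set 2, with a median difference of −0.38. As for Ctsd, the difference of set 1 was not found in the deeper libraries.

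**Figure D5:**
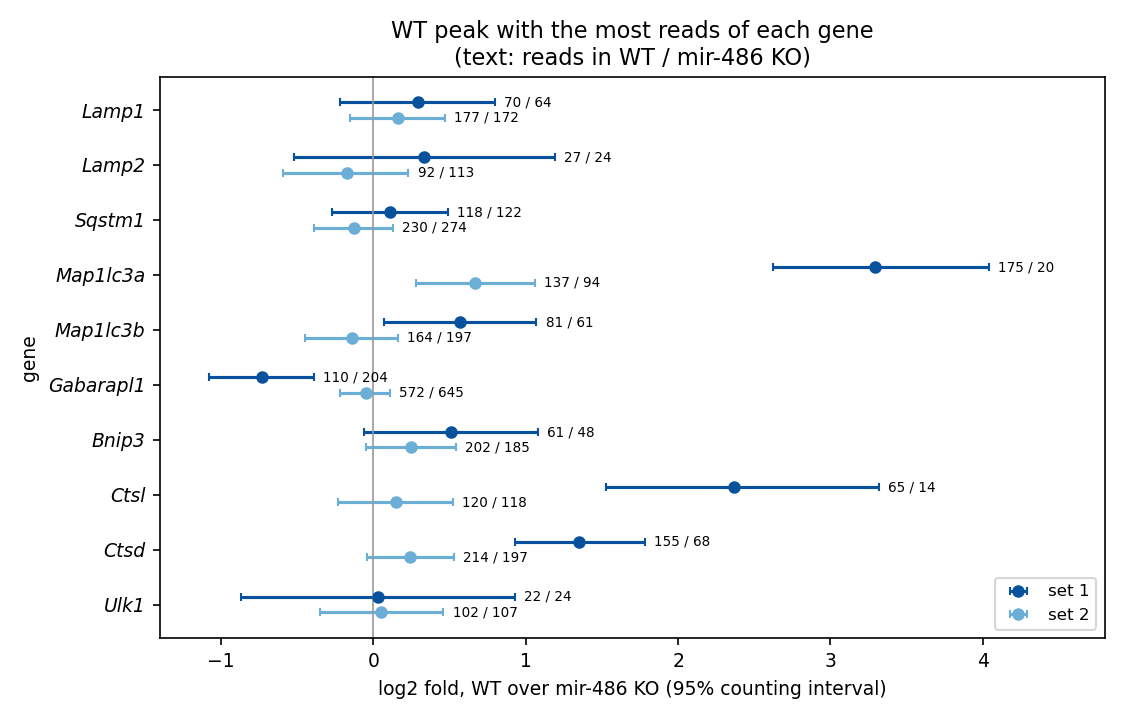
Log2 fold of WT over mir-486 KO (horizontal axis) at the WT peak with the most reads of each gene (vertical axis) in set 1 and set 2, with 95% counting intervals and the reads of WT and mir-486 KO as text. The interval lies above 0 in both sets for Map1lc3a (3.29 and 0.67) and in set 1 alone for Ctsl, Ctsd and Map1lc3b (2.37, 1.35 and 0.57), and that of Gabarapl1 lies below 0 in set 1 (−0.73) and holds 0 in set 2.

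Across the genes, agreement between sets was low for enriched peaks. Only 2 of the 13 (15.4%) recurred between sets within a genotype, while 36.1% of all enriched peaks did. These 2 were the sides of the same Gabarapl1 overlap in mir-486 KO, chr6:129541316-129541426 in set 1 with chr6:129541422-129541481 in set 2. The same site was thus counted from each set. The Wilson interval (95%, 4.33 to 42.2) takes the 13 peaks as independent. This pair and adjoining peaks of the same transcript are not. At a log2 fold of at least 1, 27 of 69 peaks recurred (39.1%, 28.5 to 50.9), with the same limit on the interval. Among all such peaks 41.1% did.

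Seed words were also counted in the peaks themselves. Of the 3 enriched 3′ UTR peaks, 1 held a word of the 6 families, against 42.4% of all 3504 enriched 3′ UTR peaks. That Gabarapl1 peak held the miR-133 word and, within the extension of 25 nt, the miR-486-5p word. Of all enriched 3′ UTR peaks 9.10% held the first and 0.885% the second. Among 137 listed 3′ UTR peaks of the 10 genes, 4 held the miR-133 word and 6 the miR-486-5p word, all in Gabarapl1. None held the miR-1 and miR-206, let-7, miR-29 or miR-30 word.

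A wider list of 113 autophagy and lysosome genes set these values in their pathway. The list covered initiation, conjugation, receptors, fusion, regulators, lysosomal membrane proteins, hydrolases and the proton pump. Enriched peaks were found in 26 of the 113 genes in WT set 1, 6 in mir-486 KO set 1, 20 in WT set 2 and 18 in mir-486 KO set 2. By peaks these were 3.48%, 0.653%, 1.28% and 1.28% of those listed in the 113 genes, close to or below the shares of all listed peaks given above. The most were in Vmp1, a membrane protein needed to form autophagosomes, with 3, 2, 4 and 3 peaks in the same order. Prkaa1, a catalytic subunit of AMP-activated kinase, had 8, all in WT set 2, and Asah1, the lysosomal acid ceramidase, had 1, 0, 1 and 6. Rb1cc1, a scaffold of the ULK1 complex, had 2, 1, 1 and 3, Wipi2, which binds early autophagosome membranes, had 1, 0, 3 and 3, and Foxo1 had 3, 0, 2 and 1. Atp6v1a and Man2b1 had as many in sum as Foxo1 but fewer listed peaks.

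Between genotypes, 3 genes of the list had a peak past the thresholds for WT over mir-486 KO in set 1 and 1 gene in set 2, with 0 in the other direction in both. As shares of listed peaks, 0.912% and 0.0367% passed for WT over mir-486 KO in sets 1 and 2, beside 0.469% and 0.0192% of all listed peaks. In the other direction 0% passed in both sets, beside 0.179% and 0.0144% of all listed peaks. Foxo1, a transcription factor that activates autophagy and atrophy genes in muscle, accounted for 9 of the 11 peaks of set 1. Its deepest such peak, in the 3′ UTR at chr3:52348579-52348710, held 261 WT and 13 mir-486 KO reads, a log2 fold of 4.49 (3.69 to 5.42), and 11 in the WT input. Its median log2 fold at WT peaks was 2.31 in set 1 and −0.23 in set 2. At WT peaks the direction of Foxo1 thus turned between sets. At mir-486 KO peaks its median log2 fold of mir-486 KO over WT was 0.20 in set 1 and 0.59 in set 2. All listed mir-486 KO peaks gave medians of 0.72 and 0.27. The sign of the Foxo1 median in set 1 thus turned with the peak list, while its 0.20 lay below the median of all listed mir-486 KO peaks. At a log2 fold of at least 1, 21 Foxo1 peaks passed for WT over mir-486 KO in set 1 and 0 passed in the other direction.

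The other peaks past the thresholds held few reads. Rab7, a GTPase of late endosomes, had 16 WT and 2 mir-486 KO reads, and Tfeb, a transcription factor for lysosome genes, had 24 and 3 in an intron. Ctss, the cathepsin S gene, was the gene of set 2, with 19 and 2 reads, and had no listed peak in set 1. The median over genes of the gene's median log2 fold was 0.80 for WT over mir-486 KO at WT peaks in set 1 and 0.24 in set 2, beside 0.86 and 0.32 for all genes with at least 3 listed peaks. Of the 113 genes, 25 had a peak at a log2 fold of at least 1 for WT over mir-486 KO in set 1 and 4 in set 2. In the other direction there were 4 and 3. By peaks these were 5.31% and 0.294% for WT over mir-486 KO, and 0.363% and 0.138% in the other direction, beside 4.85%, 0.403%, 0.755% and 0.144% of all listed peaks.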

How the data were processed

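AGO2 chimeric eCLIP peaks were analysed from 8 lists. Per the methods and the submitters' processing notes, the authors used UMI-tools, cutadapt, FastQC, STAR and SAMtools and called peaks per library with CLIPper, without pooling. Each peak carries 2 values that the authors deposited, a log2 fold of reads scaled to each library and the −log10 of a p-value, with 400 as the highest value. There were 4 lists over input and 4 between genotypes. Coordinates are GRCm38 (mm10), 1-based.

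Reads were recovered here, because a log2 fold is the ratio of 2 whole numbers times a constant and the p (Fisher's exact test when a count is below 5, otherwise chi-square with Yates' correction) sets their size. Between 92.3% and 98.9% of peaks with a p gave 1 pair of reads, and at most 0.800% lay on whole ratios after the constant was moved by 0.01. A recovered pair can still be wrong, as at the mir-486 KO set 2 peak of Sqstm1 named above. Where only a ratio was recovered, the reads are the least possible, and the reads of a peak that the text gives were settled by at least 1 list unless only a fold is quoted. Intervals of folds are exact binomial (Clopper-Pearson, 95%), those of shares are Wilson, and both cover counting error only. A read that spans adjoining peaks counts in each.

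Genes came from GENCODE M21. A region was read at the peak midpoint, in the order CDS, UTR, noncoding exon and intron. Matched peaks were mutual best overlaps of at least 50% of both. No test was made across genotypes. The members, gene lists and thresholds were chosen with earlier results of these data known. All 10 genes were named, with, of the 113 pathway genes, the 6 with the most enriched peaks (ties settled by the number of listed peaks) and those with a peak past the thresholds between genotypes. Sites named were the strongest enriched peak of a gene per library, peaks past the thresholds between genotypes, and peaks at seed words. The deepest peak per gene and Foxo1 values were added after seeing the data.

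Alternatives were other thresholds, peaks wholly within an exon, other region rules, other overlaps, seed extensions and words, mir-486 KO peaks, and each set alone. A minimum of 20 reads and matched peaks were added after the data were seen. The steps were tested on simulated data: of 772 simulated folds and p-values, 100% gave back their reads. The simulated p-values came from the formula used to recover the reads, and only positive folds were kept. The simulation therefore checks that the formula can be inverted, and cannot show that the deposited p-values follow it. Python 3.11.15, numpy 2.4.6, pandas 2.3.3, scipy 1.17.1, pysam 0.24.0 and matplotlib 3.10.9 were used.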

Additional observations from a re-analysis of the deposited data

How the results depend on the processing

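No paired test was made, because there were only 2 sets. Folds between genotypes are already differences within a set, given with their SD over the 2 sets. The mean log2 ratio of enriched peaks (WT count plus 1 over mir-486 KO count plus 1) was 0.34 (SD 2.35, n = 2 sets) and turned to −0.10 for peaks wholly within an exon. With each set alone it ran from −1.32 to 2.00. The direct comparison of WT over mir-486 KO had 1 peak past the thresholds. It had 19 at a log2 of 1, 0 at a log2 of 4, 0 wholly within an exon and 0 to 1 with each set alone. The 0 peaks of mir-486 KO over WT became 5 at a log2 of 1. The median log2 fold of 0.38 became 1.05 for enriched peaks alone and 0.85 for matched peaks over input, and ran from 0.08 to 0.68 with each set alone. The 3′ UTR share of enriched peaks in mir-486 KO, 3 of 5, became 0% at a log2 of 4 and ran from 0% to 75% with each set alone. Recurrence, 15.4%, became 0% at a log2 of 4 and 0% when 50% of each peak had to overlap. The 1 enriched 3′ UTR peak with a seed word became 6 at a log2 of 1, and a log2 of 4 and set 1 alone left no such peak. For single genes, the mean of Lamp2, 0.21, turned to −0.43 at mir-486 KO peaks, and that of Bnip3, 0.30, to −0.05 with at least 20 reads. Signs also turned for Ulk1 (0.40 to −0.21 at mir-486 KO peaks and −0.02 with at least 20 reads), Gabarapl1 (−0.71 to 0.17 at matched peaks), and, in set 2 alone, Sqstm1 (0.29 to −0.07) and Map1lc3b (0.11 to −0.21). Of the 60 alternative values for single genes 50 stayed within 1 SD of the sets, and of the 56 for the main results 42 did or kept their call. For single genes, a value with 1 set alone always lies within 1 SD of the mean of 2 sets. Those alternatives could not move, so the 50 of 60 does not measure stability. The causes were not tested. Set 1 is the shallower of the sets, and inputs of 1 to 4 reads leave the folds of the highest peaks wide.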
